A study of Sus scrofa with 36 samples.

Results

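Chemokines are small secreted proteins that guide the movement of cells, and chemokine receptors are the surface proteins that read them. Described here are 9 such genes in the pig heart after infarction: the ligands CCL2, CXCL2, CXCL8, CXCL12 and CXCL14, the receptors CCR1, CXCR4 and CX3CR1, and the atypical receptor ACKR3. They were taken by their pig gene symbols from a table of 25880 genes. All 9 had enough counts to be tested, CXCL8 by its counts in infarct tissue alone.

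After an infarct, injured and resident cells of the heart release CCL2, which attracts monocytes, and CXCL2 and CXCL8, which attract neutrophils. CXCL12 is made mainly by stromal and vascular cells and acts through CXCR4, while ACKR3 binds CXCL12 and removes it without the usual G protein signal. CX3CR1 is the receptor of fractalkine on monocytes and resident macrophages, and CCR1 is a receptor for several CC chemokines on myeloid cells. CXCL14 is a ligand found in epithelial and connective tissues whose receptor is not settled.

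The hearts came from 24 Yorkshire-landrace pigs, 12 with an infarct made by lasting ligation of branches of the left anterior descending and left circumflex arteries and 12 with sham surgery. Surgery was done on day 2 of life (called Young here) or day 14 (Old), and hearts were sampled after 1 day (Early) or 1 week (Late). Pigs were therefore 3 days old at harvest in Young Early, 15 in Old Early, 9 in Young Late and 21 in Old Late. Of an infarcted heart, tissue of the infarct (IZ) and of the border around it (BZ) was sequenced, and of a sham heart the anterior wall of the left ventricle, for 36 libraries in 12 groups of 3. All pigs, shams included, had anaesthesia, ketoprofen for pain (itself an anti-inflammatory drug) and the antibiotic enrofloxacin. No group without surgery was analysed here. Each library is whole tissue, so more RNA per cell and more cells of a type cannot be told apart in any value below.

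The count table gives each gene 1 model, in coordinates whose genome build is not named in the sources used here. CXCL8 (ENSSSCG00000008953, chromosome 8, 69932644 to 69935861) and CXCL2 (ENSSSCG00000008959, chromosome 8, 70054756 to 70163415) lie near each other on the plus strand. The CXCL2 model spans 3 separate blocks of exons, and a RefSeq table of the Sscrofa11.1 assembly places a second gene, LOC100525396, in the same span. Counts of CXCL2 may therefore include reads of that neighbour, and its level is not compared with that of other genes. CCR1 (ENSSSCG00000011322, chromosome 13, 29227222 to 29233960) shares its span with XCR1 in the same RefSeq table, which makes its counts uncertain in the same way. CX3CR1 (ENSSSCG00000024024) lies on chromosome 13 at 23944369 to 23957486. CXCR4 (ENSSSCG00000039416, 15663492 to 15670979) and ACKR3 (ENSSSCG00000016322, 136370530 to 136382552) are far apart on chromosome 15. CCL2 (ENSSSCG00000017723) is on chromosome 12 at 40798116 to 40800026, CXCL12 (ENSSSCG00000034973) on chromosome 14 at 91516433 to 91552752, and CXCL14 (ENSSSCG00000014310) on chromosome 2 at 137803992 to 137813156.

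The libraries held 8.1 to 39.8 M counts each (median 22.55 M), and RNA integrity numbers were 6.3 to 8.4. The shallowest library was Young Late Sham replicate 2 and the deepest Young Early BZ replicate 2. Markers of cardiomyocytes were plentiful in every library (6 of 7 found; 25683 to 42187 summed CPM, or counts per M library counts, in Early IZ against 63978 to 101585 in Early shams). Markers of other cells moved with the infarct. The 7 neutrophil markers found of 8 summed to 29 to 39.5 CPM in Young Early IZ and to 41.8 to 314 in Old Early IZ, against at most 6.83 in any sham. The 314 CPM belonged to Old Early IZ replicate 1, which also had the lowest RNA integrity number of the series. S100A8 and S100A12 led that list, while MPO and ELANE, granule genes made mainly by immature neutrophils, had means of at most 0.0882 CPM in any IZ group. The 9 macrophage and monocyte markers summed to 634 to 880 CPM in the Late IZ groups and 73.7 to 183 in the Late shams. Fibroblast markers (6 of 6) summed to 12077 to 15098 CPM in Old Late IZ and 1025 to 1296 in its sham. Most of that sum was collagen RNA, with means of 7379 CPM for COL3A1 and 5417 for COL1A1, against 656 and 227 in sham. The rest rose less, DCN to 779 from 198, LUM to 181 from 49.1, TCF21 to 40.3 from 9.13 and PDGFRA to 7.66 from 3.19. Endothelial markers (7 of 8 found) summed to 640 to 1205 CPM in Old Early IZ and 625 to 907 in Old Early BZ, against 354 to 368 in that sham. The part of these shifts in the chemokine results was not tested.

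Against sham, 22 of the 36 tests of IZ (9 genes in 4 conditions) and 15 of the 36 tests of BZ passed an adjusted p of 0.05, and every one of these calls was higher in the infarcted heart. In IZ the number called higher was 5 of 9 in Young Early, 7 in Old Early, 4 in Young Late and 6 in Old Late. The 7 of Old Early, and so the 22, include CXCL8, which passed the count filter through IZ libraries alone, those of Old Early among them. Over all 14537 genes tested, the shares called higher were 15.2%, 19.5%, 17.2% and 25.1%. In BZ the number was 2 of 9 in Young Early, 5 in Old Early, 4 in Young Late and 4 in Old Late, where 0.784%, 14.1%, 8.25% and 20% of all genes were called higher. The median log2 fold change of the 9 genes in IZ was 1.61, 2.28, 1.00 and 1.57 in the same order, beside medians of all genes between -0.04 and 0.08. CCL2, CXCL14 and CCR1 were called higher in IZ in all 4 conditions. CXCL2, CXCL8 and ACKR3 had their only IZ calls 1 day after surgery, and CXCL12 and CX3CR1 theirs 1 week after. IZ and BZ of a condition are set against the same 3 sham libraries, so the comparisons are not independent of each other. Where groups of 3 are said below not to overlap, the share of all genes without overlap is not given here.

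**Figure D1:**
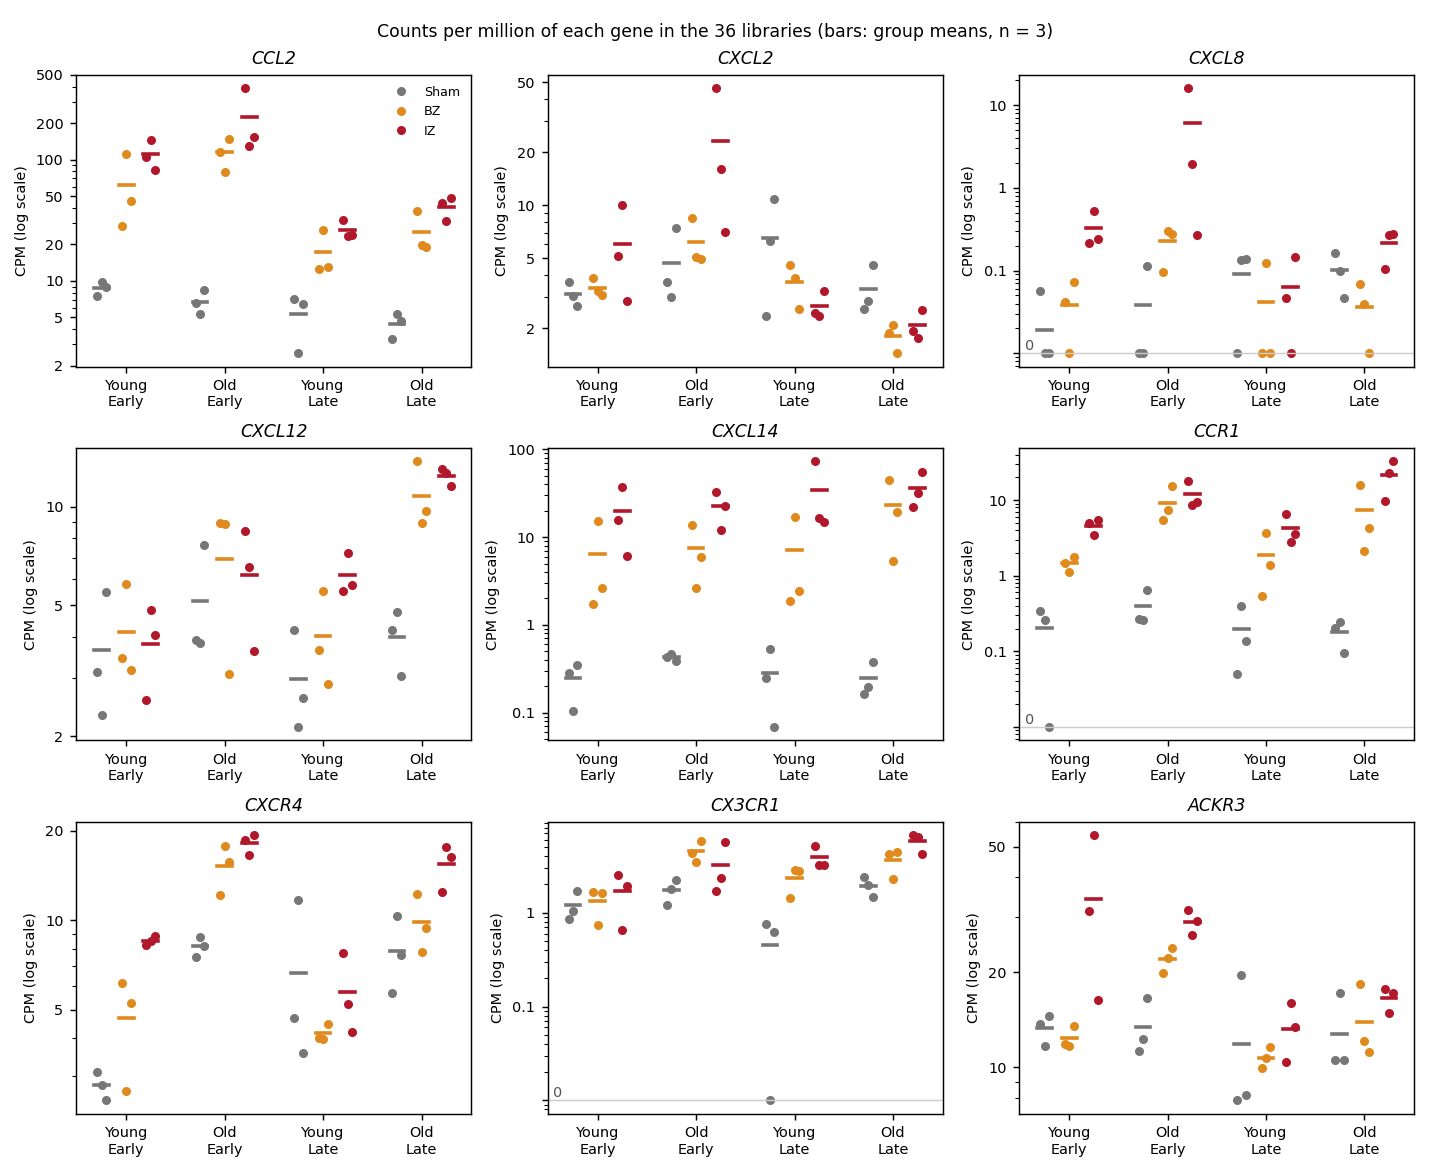
Counts per M library counts (CPM) of each of the 9 genes in the 36 libraries, on a log axis, with 1 point per library and a bar at each group mean (grey sham, orange BZ, red IZ). Points on the line marked 0 are libraries with no count. CCL2, CXCL14 and CCR1 lie above sham in every zone group, and the CXCL8 values of Old Early IZ reach 16.2 CPM.

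CCL2, the monocyte attractant, had group means from 5.94 to 299 CPM per kb of exon. In the shams it read 7.59, 9.82 and 8.87 CPM in Young Early, 6.54, 5.31 and 8.37 in Old Early, 7.14, 2.53 and 6.45 in Young Late, and 3.32, 5.36 and 4.70 in Old Late. In IZ it read 106, 146 and 82.8 CPM in Young Early, 391, 130 and 152 in Old Early, 32.1, 23.6 and 23.9 in Young Late, and 44.0, 31.2 and 48.0 in Old Late. No IZ library overlapped the shams of its condition, and the 6 Early IZ libraries were all above the 6 Late ones. The log2 fold changes of CCL2 in IZ were 3.67 ± 0.47 in Young Early (SE of the edgeR fit, n = 3 libraries per group; adjusted p = 7.80e-06) and 5.05 ± 0.50 in Old Early (adjusted p = 1.78e-07). One week after surgery they were 2.25 ± 0.46 in Young (adjusted p = 0.000543) and 3.21 ± 0.47 in Old (adjusted p = 2.37e-06).

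In BZ the CCL2 level was 28.3, 112 and 45.5 CPM in Young Early and 116, 78.8 and 149 in Old Early. One week after surgery it was 12.6, 26.1 and 13.1 CPM in Young and 38.0, 19.7 and 19.0 in Old. Every BZ library of CCL2 was above the shams of its condition, but Young Early BZ replicate 2 was far above the other two. The BZ rise of CCL2 was 2.82 ± 0.46 on the log2 scale in Young Early (adjusted p = 0.00347, edgeR), 4.08 ± 0.48 in Old Early (6.33e-06), 1.62 ± 0.46 in Young Late (0.0173) and 2.52 ± 0.46 in Old Late (0.000109). The Young Late call was lost without Young Late Sham replicate 2 (1.34, adjusted p = 0.113) or BZ replicate 2 (1.21, adjusted p = 0.133), and in limma-voom with the pig as a random block (1.55, adjusted p = 0.08) or with no pig term (1.55, 0.0736). The Young Early call was lost when only Young Early BZ and sham were fitted (2.76, adjusted p = 0.806).

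CXCL2 and CXCL8, the neutrophil attractants, were low in most groups and highest in Old Early IZ. CXCL2 read 46.4, 16.0 and 7.03 CPM there, against 3.67, 3.02 and 7.45 in Old Early Sham and 8.46, 5.07 and 4.98 in Old Early BZ. The lowest IZ library lay below the highest sham, so the groups overlapped. The rise of CXCL2 in Old Early IZ was 2.28 ± 0.51 on the log2 scale (adjusted p = 0.000994, edgeR), and 1.27 ± 0.46 (adjusted p = 0.0485) without IZ replicate 1, the library with the most neutrophil marker counts. In Young Early, CXCL2 read 5.14, 10.1 and 2.86 CPM in IZ and 3.65, 3.05 and 2.68 in sham, a difference that did not pass (0.91 ± 0.53, adjusted p = 0.197).

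One week after surgery CXCL2 was no higher in the infarcted hearts. It read 2.44, 2.37 and 3.25 CPM in Young Late IZ and 1.94, 1.77 and 2.56 in Old Late IZ. The Late shams read 2.35, 6.27 and 10.8 CPM in Young and 2.59, 2.85 and 4.60 in Old. All Old Late zone libraries of CXCL2 lay below their shams, yet neither zone passed (IZ -0.67 ± 0.53, adjusted p = 0.304; BZ -0.88 ± 0.54, adjusted p = 0.196). The Young Late IZ difference was -1.26 ± 0.55 (adjusted p = 0.0802). With RNA integrity as a covariate, these 3 did pass as lower, at -1.43 in Old Late IZ (adjusted p = 0.0158), -1.72 in Old Late BZ (0.0108) and -1.38 in Young Late IZ (0.0208), and Young Early IZ passed as higher (1.25, adjusted p = 0.0404). Old Late BZ also passed as lower when fitted with its sham alone (-0.847, adjusted p = 0.0374). Young Late IZ did so with the DESeq2 test (-1.29, adjusted p = 0.046) and without Young Late Sham replicate 1 (-1.70, 0.02).

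CXCL8 was close to the limit of detection in all libraries but replicates 1 and 2 of Old Early IZ. It had no count in 10 of the 36 libraries, where 3 counts would equal 0.108 to 0.206 CPM. The Old Early IZ libraries held 392, 52 and 7 counts of CXCL8 (16.2, 1.93 and 0.270 CPM), and the matching shams 0, 0 and 3 counts. Most of the signal thus lay in IZ replicate 1, the library with the high CXCL2 and neutrophil marker values. CXCL8 passed the count filter through IZ libraries alone, among them the highest ones of Old Early. Its entry into the test thus drew on the group in which it was called higher. Summed over the group, 451 counts against 3 gave a depth-corrected ratio of 125, with an exact Poisson 95% interval of 42.6 to 609 that covers counting error only. The CXCL8 call in Old Early IZ (log2 fold change 6.88 ± 0.95, adjusted p = 8.85e-07, edgeR) held without replicate 1, at 4.43 ± 0.87 (adjusted p = 0.000238). In Young Early IZ the counts were 7, 9 and 9 against 1, 0 and 0 in sham, a ratio of 14.7 (2.40 to 603). All 3 of these IZ libraries were above the shams, but the test did not call CXCL8 there (3.60 ± 1.77, adjusted p = 0.12). It passed with RNA integrity as a covariate (4.47, adjusted p = 0.0419) and with the DESeq2 test (3.90, adjusted p = 0.0445). In Old Late, 22 counts in IZ stood against 7 in sham, a ratio of 2.12 (0.876 to 5.89), and Young Late IZ and sham held 3 counts each.

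CXCL14 had some of the largest changes of the 9 genes in both zones at both times. No sham library was above 0.533 CPM. In IZ it read 15.6, 37.2 and 6.12 CPM in Young Early, 33.0, 12.0 and 22.9 in Old Early, 73.1, 16.6 and 14.9 in Young Late, and 22.2, 32.3 and 55.2 in Old Late. Every IZ library was thus at least 6.12 CPM and above all shams of the series, while libraries within a group differed severalfold. The log2 fold changes of CXCL14 in IZ were 6.33 ± 1.19 in Young Early (adjusted p = 0.000354, edgeR), 5.73 ± 1.07 in Old Early (0.000161), 7.15 ± 1.24 in Young Late (7.85e-05) and 7.21 ± 1.16 in Old Late (7.80e-06). Because the sham level is so low, the size of these folds is less certain than their direction.

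The border zone level of CXCL14 varied widely between pigs. It read 1.73, 15.1 and 2.64 CPM in Young Early, 13.8, 2.63 and 5.91 in Old Early, 1.88, 16.9 and 2.44 in Young Late, and 44.7, 5.28 and 19.2 in Old Late. All 12 BZ libraries were above the shams, and the 3 of a condition spread widely. The BZ rise passed in Young Early (4.74 ± 1.21, adjusted p = 0.0482, edgeR), Old Early (4.13 ± 1.06, 0.00579), Young Late (4.81 ± 1.27, 0.012) and Old Late (6.55 ± 1.15, 6.40e-05). In limma-voom with the pig as a random block, 3 of these 4 calls were lost, at 4.04 in Young Early (adjusted p = 0.287), 3.78 in Old Early (0.0658) and 4.05 in Young Late (0.161). The same 3 were lost in limma-voom with no pig term (adjusted p = 0.269, 0.0631 and 0.157). The Young Early call was also lost without BZ replicate 2 (3.19, adjusted p = 0.139), without any 1 of its shams and under most other settings, and the Young Late call without BZ replicate 2 (3.15, adjusted p = 0.151) or Sham replicate 3.

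CXCL12, the stromal ligand of CXCR4 and ACKR3, was higher than sham only in calls of the Old Late hearts. It read 13.0, 12.6 and 11.6 CPM in Old Late IZ and 13.7, 8.92 and 9.71 in Old Late BZ, against 4.21, 4.77 and 3.05 in Old Late Sham. Neither zone overlapped sham. The log2 fold change of CXCL12 was 1.63 ± 0.38 in IZ (adjusted p = 0.000866, edgeR) and 1.43 ± 0.38 in BZ (adjusted p = 0.0044; 1.09 and 0.0548 with RNA integrity as a covariate). In Young Late IZ it read 5.53, 7.24 and 5.79 CPM against 4.20, 2.13 and 2.61 in sham, without overlap, and the difference of 1.00 ± 0.41 did not pass (adjusted p = 0.0664). It passed when those groups were fitted alone (0.93, adjusted p = 0.0392), with the DESeq2 test (1.02, 0.0441) and without Young Late Sham replicate 1 (1.36, 0.0369).

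One day after surgery the IZ level of CXCL12 was 2.57, 4.84 and 4.05 CPM in Young and 8.41, 6.57 and 3.63 in Old. The matching shams read 3.14, 2.31 and 5.50 in Young and 3.94, 3.85 and 7.64 in Old, so the groups overlapped at both ages. The differences were 0.07 ± 0.40 (adjusted p = 0.92; 95% interval of the log2 fold change -0.76 to 0.89) and 0.26 ± 0.38 (adjusted p = 0.62; -0.53 to 1.04). The summed fibroblast markers, mostly COL3A1 and COL1A1, were also highest in Old Late IZ, as given above.

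CCR1, a receptor for CC chemokines on monocytes and neutrophils, was nearly absent from the shams, with no library above 0.650 CPM and 1 without a count (Young Early Sham replicate 3, where 3 counts equal 0.206 CPM). In IZ it read 4.92, 3.48 and 5.40 CPM in Young Early and 17.9, 8.50 and 9.35 in Old Early. One week after surgery it read 6.47, 2.77 and 3.54 CPM in Young and 9.75, 23.1 and 32.5 in Old. Every IZ library was above all shams, and at both times every Old IZ library was above every Young one. The log2 fold changes of CCR1 in IZ were 4.41 ± 0.84 in Young Early (adjusted p = 0.000354, edgeR), 4.84 ± 0.72 in Old Early (8.31e-06), 4.84 ± 0.97 in Young Late (0.000365) and 6.87 ± 0.80 in Old Late (5.36e-08).

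In BZ, CCR1 read 5.43, 7.29 and 15.1 CPM in Old Early, 15.9, 2.10 and 4.34 in Old Late, 0.545, 3.67 and 1.40 in Young Late and 1.48, 1.13 and 1.76 in Young Early. All of these lay above the shams of their condition. The rise passed in Old Early (4.48 ± 0.71, adjusted p = 7.75e-05, edgeR), Old Late (5.33 ± 0.81, 8.29e-06) and Young Late (3.58 ± 1.05, 0.0211), but not in Young Early (2.75 ± 0.92, 0.115), where the DESeq2 test did call it (2.78, adjusted p = 0.0203). The Young Late call was lost in limma-voom with the pig as a random block (3.12, adjusted p = 0.136) or with no pig term (3.11, 0.125), and without BZ replicate 2 (2.74, adjusted p = 0.142) or Sham replicate 1 or 3.

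CX3CR1, the fractalkine receptor of monocytes and macrophages, was called higher in IZ only 1 week after surgery. It read 5.20, 3.25 and 3.25 CPM in Young Late IZ against 0.749, 0 and 0.618 in sham, and 6.75, 6.46 and 4.27 in Old Late IZ against 2.43, 1.97 and 1.46 in sham. Neither pair of groups overlapped. The 0 was in the shallowest library, where 3 counts equal 0.400 CPM. The log2 fold change of CX3CR1 was 2.84 ± 0.57 in Young Late IZ (adjusted p = 0.000474, edgeR) and 1.57 ± 0.44 in Old Late IZ (adjusted p = 0.00422). The summed macrophage and monocyte markers were likewise far above sham in both Late IZ groups.

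In Early IZ, CX3CR1 read 2.54, 0.649 and 1.93 CPM in Young and 1.69, 2.34 and 5.68 in Old, overlapping the shams (0.856, 1.05 and 1.72 in Young; 1.22, 1.77 and 2.25 in Old), and neither age passed (0.58 ± 0.50, adjusted p = 0.402; 0.87 ± 0.45, adjusted p = 0.138). In Old Early BZ, CX3CR1 read 4.31, 3.46 and 5.82 CPM, above all 3 shams, and the rise was called (1.36 ± 0.45, adjusted p = 0.0292). That call was lost without Sham replicate 1 or 2 or BZ replicate 3, at 1.14 or more on the log2 scale. In Young Late BZ it read 1.44, 2.86 and 2.77 CPM (2.10 ± 0.59, adjusted p = 0.0173), a call lost without Sham replicate 2 (1.76, adjusted p = 0.0831) or BZ replicate 2 (1.96, adjusted p = 0.0684) or 3. Old Late BZ (4.22, 2.30 and 4.48 CPM) did not pass (0.91 ± 0.45, adjusted p = 0.105), except when fitted with its sham alone (0.94, adjusted p = 0.0368).

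CXCR4, the signalling receptor of CXCL12 on leukocytes and endothelial cells, was called higher in 3 of the 4 IZ groups. It read 8.23, 8.50 and 8.85 CPM in Young Early IZ against 3.08, 2.78 and 2.48 in sham, and 18.6, 16.6 and 19.4 in Old Early IZ against 7.50, 8.80 and 8.18 in sham. In Old Late it read 12.5, 17.6 and 16.3 CPM in IZ against 5.71, 10.3 and 7.61 in sham. These 3 pairs of groups did not overlap, and the Young Early IZ level was within the range of the Old shams. The log2 fold change of CXCR4 was 1.61 ± 0.33 in Young Early IZ (adjusted p = 0.000793, edgeR), 1.16 ± 0.30 in Old Early IZ (0.00417) and 0.98 ± 0.30 in Old Late IZ (0.0089). The Old Late call was lost without Sham replicate 1 (0.78). In Young Late, IZ (7.78, 5.21 and 4.20 CPM) and BZ (4.01, 3.98 and 4.49) overlapped the sham values of 4.70, 11.7 and 3.57, of which the high one was the shallowest library, and IZ did not differ from sham (-0.14 ± 0.33, adjusted p = 0.78; 95% interval -0.81 to 0.53).

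Of the CXCR4 border zones, only Old Early passed, with 12.1, 17.7 and 15.7 CPM (0.89 ± 0.30, adjusted p = 0.033, edgeR). That call was lost without any 1 of the 3 shams or without BZ replicate 2 or 3, with log2 fold changes from 0.77 to 1.03 over the libraries left out. Young Early BZ read 6.17, 2.65 and 5.28 CPM (0.76 ± 0.33, adjusted p = 0.226; 1.04 and 0.0449 without the shallowest and the deepest library) and Old Late BZ 12.3, 7.81 and 9.38 (0.32 ± 0.30, adjusted p = 0.412). Young Late BZ gave -0.61 ± 0.33 (adjusted p = 0.215).

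ACKR3, the receptor that clears CXCL12, was called higher in both Early IZ groups and in no other group. It read 31.3, 54.6 and 16.3 CPM in Young Early IZ against 13.8, 11.7 and 14.5 in sham, and 31.5, 26.4 and 29.1 in Old Early IZ against 11.3, 12.3 and 16.6 in sham. Neither pair overlapped, and Young Early IZ was spread widely where Old Early IZ was not. The rise of ACKR3 was 1.35 ± 0.32 on the log2 scale in Young Early (adjusted p = 0.00253, edgeR) and 1.11 ± 0.31 in Old Early (adjusted p = 0.00691). Old Early BZ read 19.9, 22.2 and 23.9 CPM, above all its shams, but did not pass (0.71 ± 0.31, adjusted p = 0.0978). It passed when those groups were fitted alone (adjusted p = 0.0339) and without the shallowest and the deepest library of the series (0.71, adjusted p = 0.0464). One week after surgery the IZ levels of 10.4, 16.0 and 13.4 CPM in Young and 17.7, 14.8 and 17.2 in Old overlapped their shams (7.84, 19.6 and 8.17; 10.5, 17.2 and 10.5), with differences of 0.19 ± 0.32 (adjusted p = 0.689) and 0.38 ± 0.31 (adjusted p = 0.314). Endothelial markers were also higher in Old Early, where 4 of the 6 tested were called higher in IZ and 3 in BZ. In Young Early IZ 1 of the 6 was called higher, and their sum of 543 to 717 CPM stood against 456 to 470 in sham. One week after surgery none was called higher in any zone, and 4 of 6 in Young IZ and 3 of 6 in Old IZ were called lower. The part of endothelial cells in the values of ACKR3 and CXCR4 was not tested. On the scale of CPM per kb, the group mean of ACKR3 (5.28 to 16.8) was above that of CXCR4 (0.506 to 3.31) in all 12 groups.

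Young Late was the 1 condition prepared in 2 batches. Within batch 2, which held 2 libraries per group, the log2 ratio of the mean CPM of IZ to that of sham was 1.80 for CCL2, 6.63 for CXCL14, 5.08 for CCR1 and 2.25 for CX3CR1, and in BZ it was 1.51, 5.88, 4.49 and 1.65. Batch 1 held 1 library of each group, the shallowest library among them, and gave 3.66 for CCL2, 7.10 for CXCL14 and 4.01 for CCR1 in IZ. Every zone library of these genes was above every Young Late sham, so the direction within a batch was fixed and tests nothing about batch. Only the size of the ratios could differ.

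**Figure D2:**
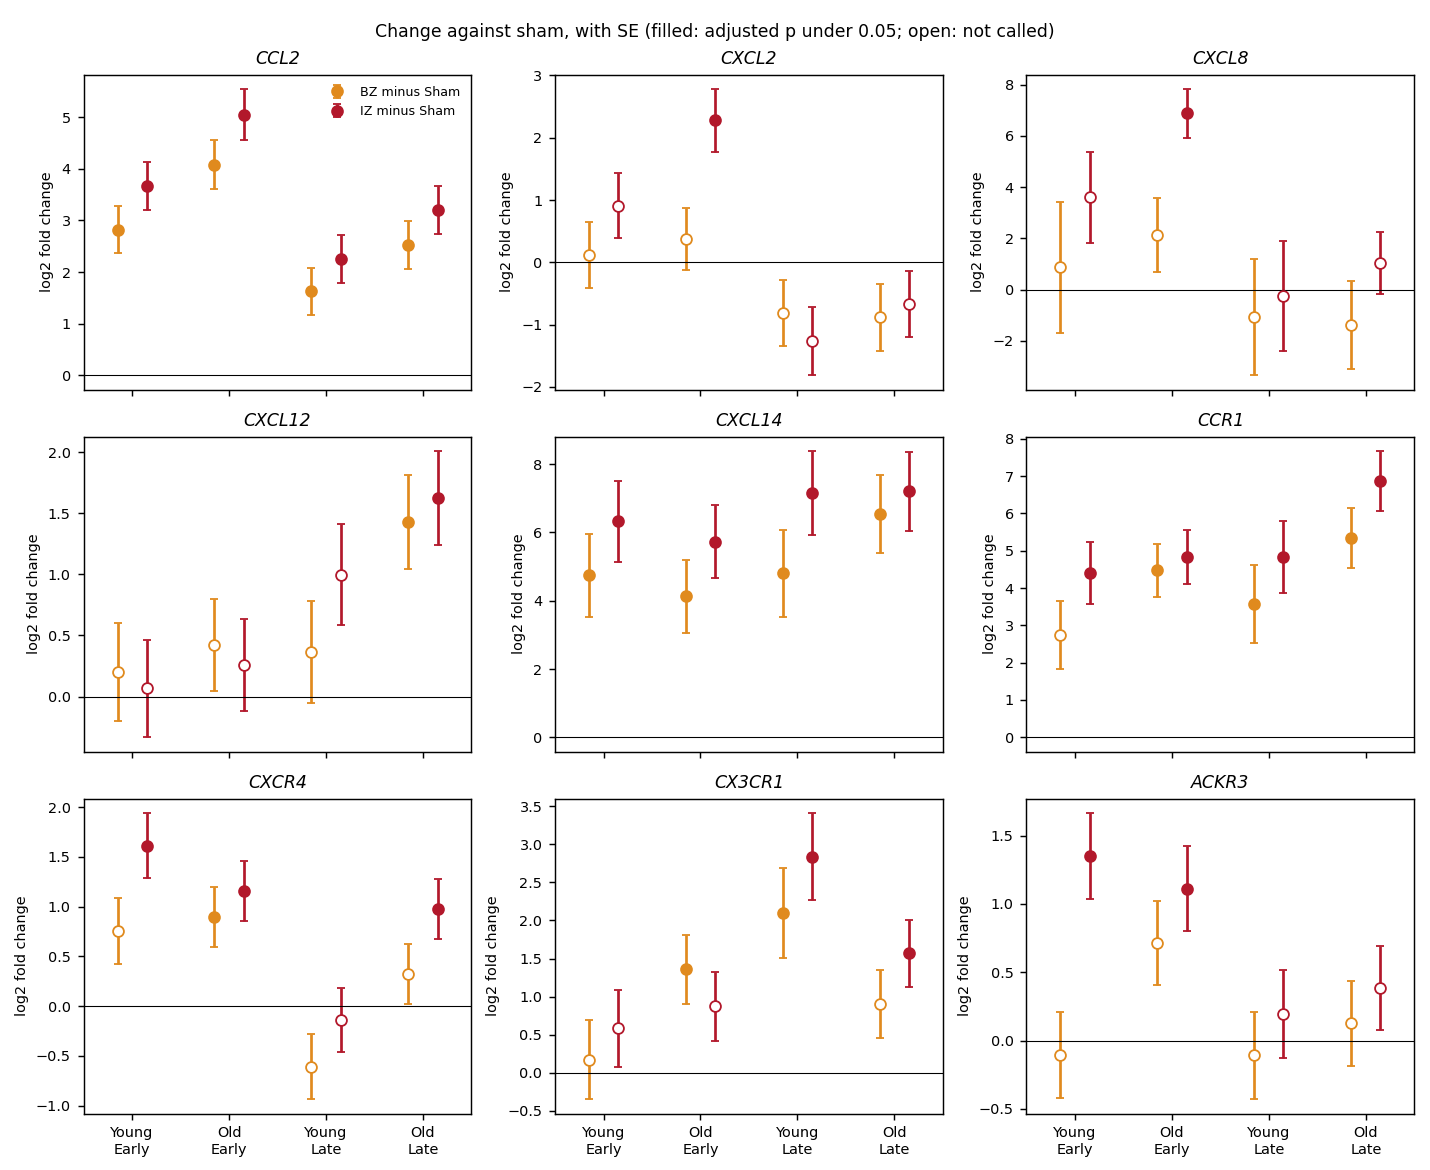
Log2 fold change of each gene against the shams of its own condition, with SE, for BZ (orange) and IZ (red); filled points have an adjusted p under 0.05. CCL2, CXCL14 and CCR1 have filled IZ points in all 4 conditions, ACKR3 only in Early, and CXCL12 only in Old Late.

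Within 1 heart, IZ mostly read higher than BZ. Of the 12 infarcted pigs, IZ was above BZ in 11 for CCL2, CXCL14 and ACKR3, in 10 for CXCL8, CCR1 and CXCR4, in 8 for CXCL2 and CX3CR1, and in 7 for CXCL12. The share of all genes with such counts of pigs is not given here, and several CXCL8 pairs rest on few counts or none. Pairs follow the titles of the libraries, and for Old Late BZ replicate 3 the individual tag names another pig. In Young Late, IZ and BZ of replicate 1, and likewise of replicate 3, were prepared in different batches. Zone and batch are therefore mixed within those pigs. In a fit that pairs the zones of a pig, 2 of 9 genes passed in Young Early, where 4.03% of 14386 genes were called higher in IZ. These were ACKR3 (1.30 ± 0.29, adjusted p = 0.0191, edgeR) and CXCR4 (0.91 ± 0.26, adjusted p = 0.0435), each higher in 3 of 3 pigs. CCL2, CXCL8, CXCL14 and CCR1 were also higher in 3 of 3 pigs there but did not pass. The 2 calls rest on few libraries: CXCR4 lost its call without any 1 of the 6, and ACKR3 without replicate 1 or 2 of either zone. In a fit of Young Early alone neither passed (1.28, adjusted p = 0.278, for ACKR3; 0.91, adjusted p = 0.303, for CXCR4). Without Young Early BZ replicate 2, the values were 0.84 for ACKR3 (adjusted p = 0.0947) and 0.58 for CXCR4 (adjusted p = 0.2). The CXCR4 call was also lost with RNA integrity as a covariate (0.82, adjusted p = 0.0718), with no pig term (0.86, 0.0765) and with the pig of Old Late BZ replicate 3 taken from its individual tag (0.92, 0.062). The DESeq2 test called CCL2 (1.02, adjusted p = 0.0313) and CCR1 (1.63, 0.0202) in Young Early too.

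No member passed in the other 3 conditions with edgeR, where 0% of genes in Old Early, 0% in Young Late and 2.05% in Old Late were called in either direction. At an unadjusted p under 0.05 the members numbered 4, 3 and 2, with no share of all genes at that threshold to set beside them. The DESeq2 test called CCR1 in Old Late (1.88, adjusted p = 0.0102). A fit of Old Late alone called CCR1 (1.83, adjusted p = 0.00818), CCL2 (0.73, 0.0299) and CXCR4 (0.66, 0.0346). The largest such difference was CXCL8 in Old Early (3.81 ± 0.87, adjusted p = 0.483), which was 1.61 without IZ replicate 1. It passed without IZ replicate 3 (5.09, adjusted p = 0.0201) or BZ replicate 3 (5.08, 0.0201), and with no pig term (4.74, 0.00028). CX3CR1 in Old Early was the 1 gene and condition among these with IZ below BZ in 3 of 3 pigs, from 4.31 to 1.69, 3.46 to 2.34 and 5.82 to 5.68 CPM (-0.62 ± 0.36, adjusted p = 0.801).

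**Figure D3:**
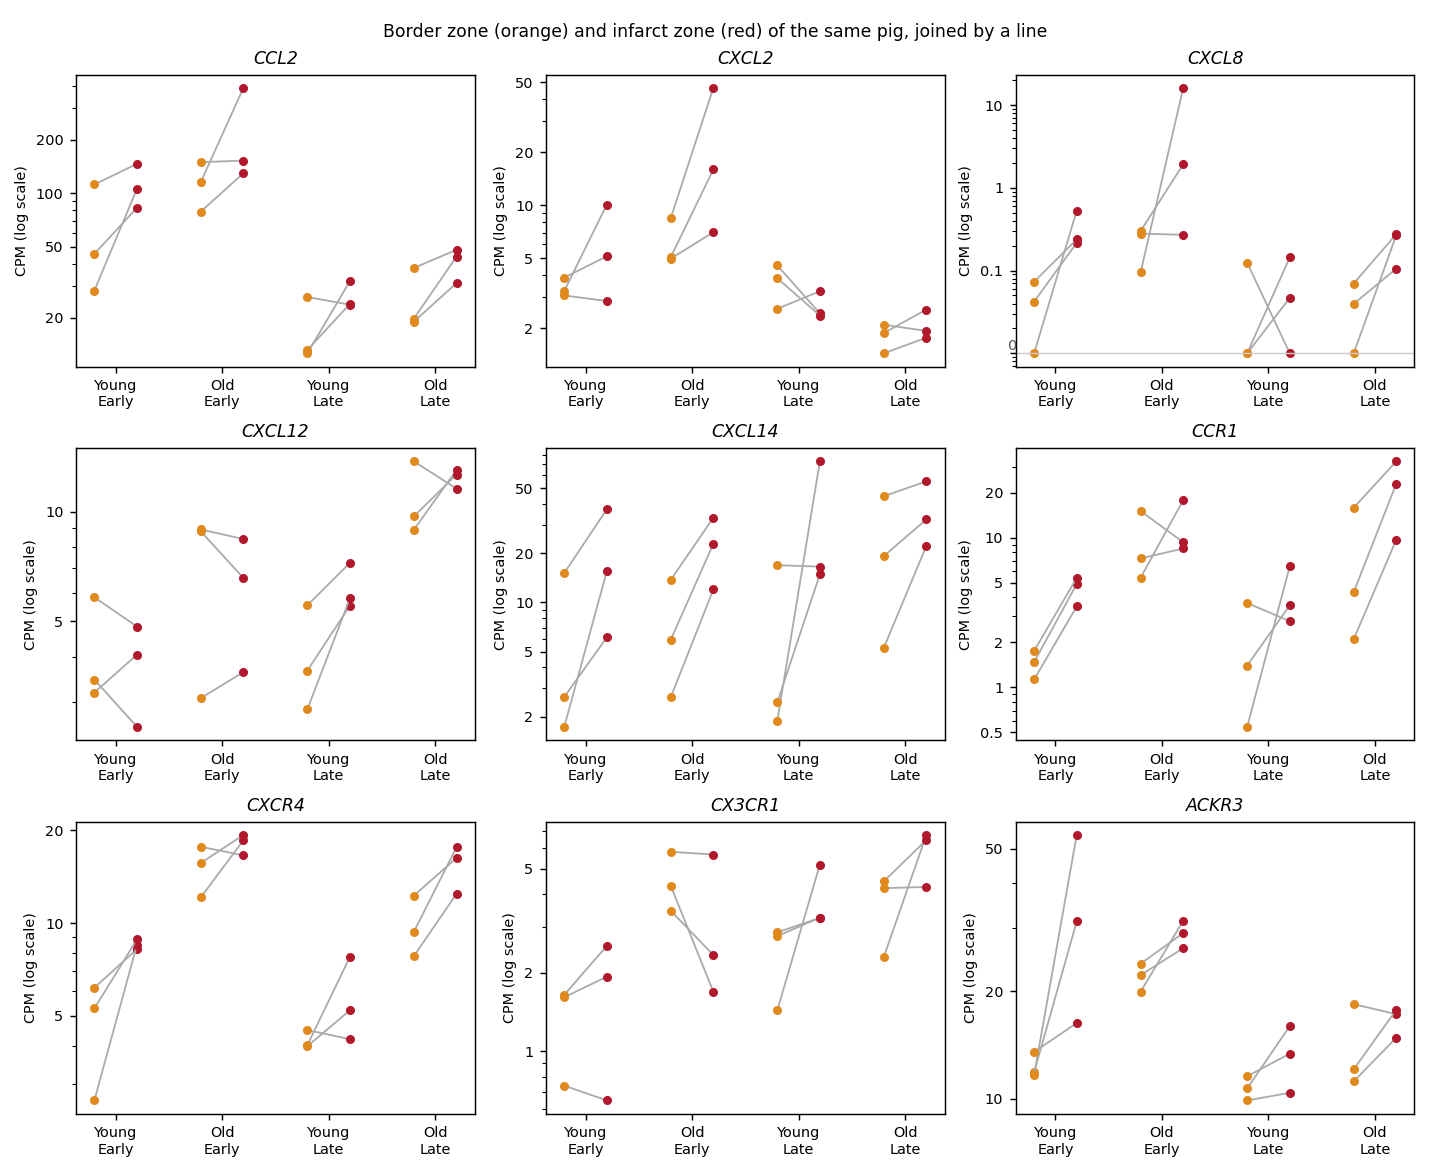
CPM of each gene in the border zone (orange) and infarct zone (red) of the same pig, joined by a line, on log axes; the line marked 0 holds CXCL8 libraries with no count. In Young Early all 3 lines of CXCR4 and ACKR3 rise, as do those of CCL2, CXCL8, CXCL14 and CCR1. In Old Early all 3 lines of CX3CR1 fall.

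The study set hearts infarcted on day 2 against hearts infarcted on day 14, and the test of this is whether the response (zone minus sham) differed between ages. With edgeR, 0 of the 36 differences passed, where 0.915% of all genes did for Early IZ, 3.67% for Late IZ, 0.22% for Early BZ and 1.09% for Late BZ. At an unadjusted p under 0.05 there were 4, a threshold at which the share of all genes is not given here. DESeq2 called 0. For CCL2, the Old response was larger by 1.38 ± 0.61 in Early IZ (adjusted p = 0.154; 95% interval 0.12 to 2.65) and by 1.26 ± 0.61 in Early BZ (adjusted p = 0.271). Without Young Early BZ replicate 2 the BZ difference of CCL2 was 2.01 and passed (adjusted p = 0.0255). The other pair were CXCR4 in Late IZ (1.12 ± 0.44, adjusted p = 0.143) and Late BZ (0.93 ± 0.45, adjusted p = 0.274). These intervals are wide: that of CCR1 in Late IZ ran from -1.58 to 5.65 and that of CXCL8 in Early IZ from -5.32 to 11.89, so neither equal nor unequal responses were shown.

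Between 1 day and 1 week, 2 of the 36 differences in response passed, both smaller in Late IZ. The response of CXCL2 in Old IZ was lower by 2.94 ± 0.73 on the log2 scale in Late than in Early hearts (a difference of -2.94, adjusted p = 0.0171, edgeR), where 1.59% of all genes were called lower. Without Old Early IZ replicate 1 it was -1.94 (adjusted p = 0.0908), without Old Late Sham replicate 3 it was -2.65 (0.0603), and with the 4 groups fitted alone -2.90 (0.0557). In limma-voom it was -2.55 both with the pig as a random block (0.0853) and with no pig term (0.0796). The response of CXCR4 in Young IZ differed by -1.75 ± 0.46 (adjusted p = 0.0164), where 6.2% of all genes were called lower. Without Young Late Sham replicate 2 it was -1.14 (adjusted p = 0.0901), and with RNA integrity as a covariate -1.58 (0.0579). In limma-voom it was -1.48 with the pig as a random block (0.0636) and -1.51 with no pig term (0.0534).

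Several other differences over time lay just outside the threshold in IZ. For CX3CR1 the Young response was larger in Late by 2.26 ± 0.78 (adjusted p = 0.054), and DESeq2 called it (2.40, adjusted p = 0.0123). For CXCL2 in Young the difference was -2.17 ± 0.76 (adjusted p = 0.0562), for ACKR3 in Young -1.16 ± 0.45 (0.082), for CCL2 in Old -1.84 ± 0.62 (0.0882) and for CXCL8 in Old -5.84 ± 2.03 (0.0885). The DESeq2 test called CXCL2 in Young (-2.21, adjusted p = 0.0253) and CXCL8 in Old (-6.09, 0.0155). Without the shallowest and the deepest library, CCL2 passed in Old (-1.84, adjusted p = 0.0264) and in Young (-1.71, 0.0372). Without Young Late Sham replicate 1, CX3CR1 (2.73, adjusted p = 0.0423), CXCL2 (-2.61, 0.0168) and ACKR3 (-1.39, 0.036) passed in Young. CXCL14 showed no such difference that could be told from 0 (0.82 ± 2.14 in Young IZ, 1.48 ± 1.70 in Old IZ). In BZ 0 of 9 passed with edgeR at either age, where 0.186% of all genes passed in Young and 1.26% in Old. An unadjusted p under 0.05 was had by 2 in Young and 1 in Old, and the share of all genes at that threshold is not given here. Without Young Early BZ replicate 2, CXCR4 in Young BZ passed (-1.63, adjusted p = 0.0255).

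**Figure D4:**
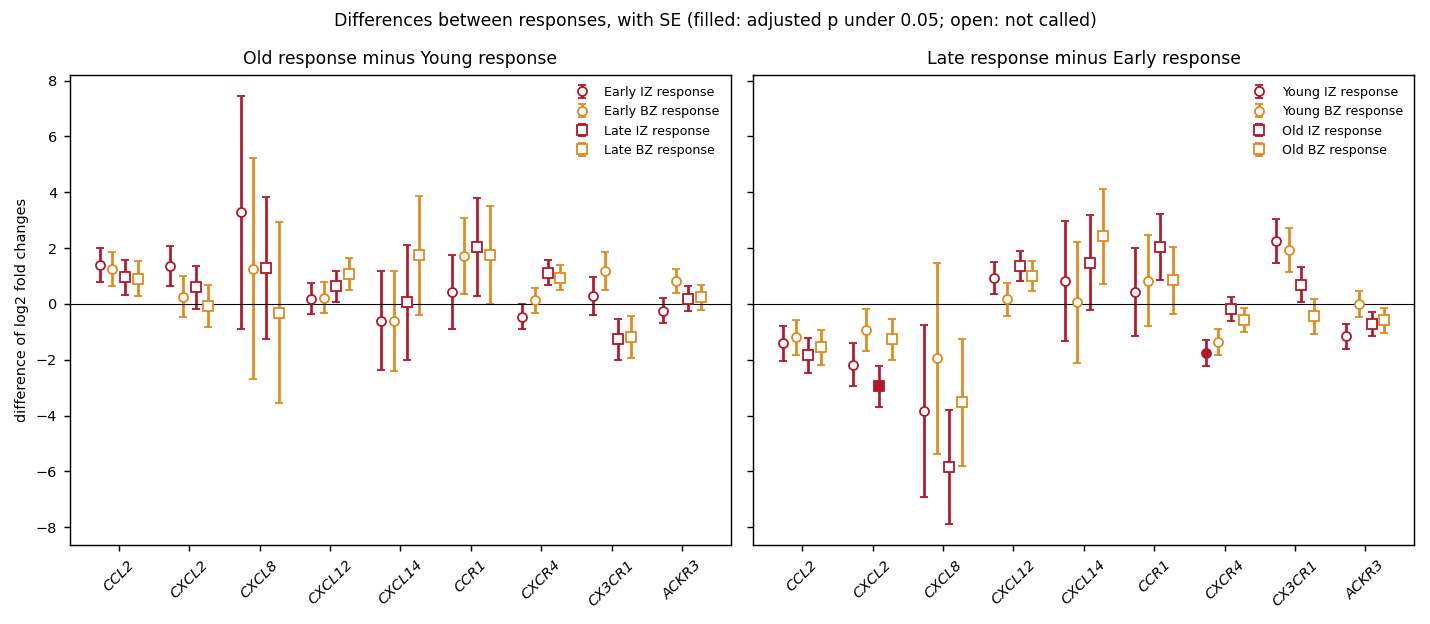
Differences between log2 responses with SE, Old minus Young at left and Late minus Early at right (red IZ, orange BZ); filled points have an adjusted p under 0.05. The filled points are CXCR4 in Young IZ and CXCL2 in Old IZ, both below 0 and both for Late minus Early.

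The shams also differed among themselves, in 3 of 36 tests. CXCR4 was higher in Old than Young Early shams by 1.55 ± 0.33 on the log2 scale (7.50, 8.80 and 8.18 against 3.08, 2.78 and 2.48 CPM; adjusted p = 0.00275, edgeR), where 17.5% of all genes were called higher. It was higher in Young Late than Young Early shams by 1.19 ± 0.34 (adjusted p = 0.0301; 4.38% of genes called higher), but by 0.57 (adjusted p = 0.309) without the shallowest library, Young Late Sham replicate 2. The call was also lost without any 1 of the Young Early shams. CX3CR1 was higher in Old than Young Late shams by 1.83 ± 0.59 (adjusted p = 0.0447; 6.98% of genes called higher), and this call was lost without that library (adjusted p = 0.12) or any other but Old Late Sham replicate 3. It was also lost with RNA integrity as a covariate (1.49, adjusted p = 0.316) and with preparation batch as a term (1.60, adjusted p = 0.183). That term was estimated from the Young Late libraries alone and could not adjust for batch 3, which held only Old Late. In limma-voom with the pig as a random block, the CXCR4 call between Young shams was lost (0.93, adjusted p = 0.155). So was that of CX3CR1 (2.33, adjusted p = 0.0543). Neither passed with no pig term (adjusted p = 0.143 and 0.0504). Without the shallowest and the deepest library, CXCR4 was called higher in Old than Young Late shams (0.92, adjusted p = 0.0218). The shams of Young Early were prepared in batch 1, those of Old Early in batch 2, those of Old Late in batch 3 and those of Young Late in batches 1 and 2. No Old sham thus shared a batch with a Young sham of the same time. Age and batch cannot be told apart in either Old minus Young sham comparison. None of the 9 genes passed between Old Late and Old Early shams with edgeR, 0 had an unadjusted p under 0.05, and 0.0275% of all genes passed.

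Ordered by mean CPM, most neighbouring groups of a gene overlapped in their libraries. Of the 11 steps between neighbours, 0 were free of overlap for CXCL2, CXCL8 and CXCL12, 1 for CCL2, CXCL14, CCR1, CXCR4 and CX3CR1, and 2 for ACKR3. The share of such steps over all genes is not given here, so these numbers only describe the 9 genes. For CCL2, CXCL14 and CCR1 the step without overlap was the one between the lowest zone group and the highest sham group. For CCL2 the order of means ran from Old Early IZ (224 ± 145 CPM, SD, n = 3) through Old Early BZ (115 ± 35.2) and Young Early IZ (111 ± 32.0) to Old Late Sham (4.46 ± 1.04). For CCR1 and CXCL14 the highest mean was that of Old Late IZ, 21.8 ± 11.4 and 36.6 ± 16.9 CPM. For ACKR3 the order began with Young Early IZ (34.1 ± 19.3) and Old Early IZ (29.0 ± 2.55), whose libraries overlapped, and then Old Early BZ (22.0 ± 1.98), which lay apart from both Old Early IZ above and Old Late IZ (16.6 ± 1.56) below.

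A wider list of 53 chemokine and receptor genes, apart from the 9, had 35 entries in the table, of which 27 could be tested. In IZ, 6 of these 27 were called higher and 2 lower in Young Early, 13 and 1 in Old Early, 14 and 0 in Young Late, and 16 and 1 in Old Late, where 27.2%, 34.3%, 30.2% and 49.1% of all genes were called in either direction. In BZ, the numbers called higher were 0, 11, 3 and 13 in that order, and 0 were called lower, where 0.784%, 14.1%, 8.25% and 20% of all genes were called higher. The 27 genes had a median log2 fold change of 0.66, 1.15, 1.98 and 1.78 in the 4 IZ comparisons. CCL3L1, an inflammatory CC ligand, rose in Old Early IZ (37.1 ± 54.3 CPM, SD, n = 3, against 0.340 ± 0.299 in sham, log2 fold change 6.65 ± 0.90, adjusted p = 3.31e-06, edgeR). It was also called higher in Young Early IZ (3.15, adjusted p = 0.0159), Old Late IZ (4.43, 0.000509), Old Early BZ (4.17, 0.00125) and Old Late BZ (3.37, 0.0118). CCL3L1 has close copies whose reads the counting could split. ACKR1, the venular receptor that takes up inflammatory chemokines, rose in Old Early IZ too (18.3 ± 11.6 against 0.867 ± 0.412 CPM, log2 fold change 4.34 ± 0.63, adjusted p = 9.40e-06), in the group where the summed endothelial markers were highest. CCR3, the eotaxin receptor, rose in Young Early IZ (3.32 ± 0.56, adjusted p = 0.000137). CCL8, a further monocyte attractant, rose in Young Late IZ (5.36 ± 1.01 against 0.193 ± 0.254 CPM, log2 fold change 4.62 ± 0.70, adjusted p = 1.76e-05). It also rose in Old Late IZ (3.88 ± 0.57, adjusted p = 2.30e-06) and Young Late BZ (3.39 ± 0.75, adjusted p = 0.00347). CXCL9, an interferon-induced ligand of CXCR3, rose in Young Late IZ (3.90 ± 0.87, adjusted p = 0.00124) and Young Late BZ (3.65 ± 0.87, adjusted p = 0.00625). CCL19, a ligand of CCR7, rose in Old Early BZ (3.76 ± 0.85, adjusted p = 0.00221) and Old Late BZ (3.31 ± 0.97, adjusted p = 0.00804). Only the 2 largest calls of a comparison were open to naming, so these genes may be called in further groups.

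Over the 36 libraries, which share 12 groups and pairs of zones from 12 pigs, the log2 CPM of CXCL14 and CCR1 moved most alike among the 9 genes (Pearson r = 0.893), followed by CCL2 and CCR1 (0.80). Among 9841 genes with a symbol and enough counts, the closest to CCL2 was TIMP1 (0.98), an inhibitor of matrix proteases, followed by ADORA2B (0.963), an adenosine receptor. CCR1 was closest to SPP1 (0.964), which encodes osteopontin, and to LCP1 (0.954), an actin-bundling protein of leukocytes. CXCL14 was closest to MCUB (0.941), a subunit of the mitochondrial calcium uniporter. CX3CR1 was closest to CD83 (0.883), CXCL12 to ALDH1A2 (0.871) and FAP (0.87), CXCR4 to FOXP1 (0.912) and ACKR3 to CSRNP1 (0.889). CXCL8 was closest to CXCL2 (0.76), and CXCL2, whose best match among the other genes was PAK1IP1 (0.708), had the weakest matches. These correlations rest on shared groups and describe likeness only.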

How the data were processed

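Ventricular tissue of 24 pigs was sequenced as polyA RNA in stranded TruSeq libraries, read as 76 bp pairs, per the labels' protocols. Reads were aligned and counted with STAR 2.2.1 (the version as listed) and featureCounts of Subread 1.5.1, after bcl2fastq 2.19.0.316 and Trimmomatic 0.36, per the submitters' processing notes; build, annotation release and strand setting are not given in the sources used here. The authors deposited whole-number raw counts per gene with a gene length, per the file headers. A table of pig gene names gave symbols for 14857 of the 25880 genes.

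Counts were filtered with filterByExpr (minimum count 10, total 15), scaled by TMM and fitted with edgeR 4.0.16 (glmQLFit, robust, legacy off) in R 4.3.3 with 12 group means, 24 residual degrees of freedom and 14537 genes. IZ and BZ of a pig enter that fit as independent. IZ minus BZ used 24 libraries with the pig as a fixed block (8 residual degrees of freedom, 14386 genes). Each of 24 comparisons was Benjamini-Hochberg adjusted over all genes, with calls at an adjusted p under 0.05. CPM use TMM-scaled totals, and log2 CPM for likeness a prior count of 2. The SE of a log2 fold change was taken from the F statistic. The scripts were tested on simulated data.

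Replicates are separate pigs, per the labels' titles; for Old Late BZ replicate 3 the title and the individual tag name different pigs, and the title was used. IZ and BZ of one pig deviated together (consensus correlation 0.3776 in limma-voom 3.58.1), which pairs them. Alternatives were DESeq2 1.42.0 size factors and test, no filter, the compared groups alone, preparation batch, RNA integrity, limma-voom with the pig as a random block, omission of mitochondrially encoded genes, and omission of each library in turn. After seeing the data, leaving out both libraries of extreme depth, the legacy edgeR fit and limma-voom with no pig term were added. The genes named are the 9 members; per comparison with sham, the 2 called genes of the wider list with the largest change (mean log2 CPM of at least 0), of which a part is printed; and the 3 genes most like each member, of which a part is printed. The 9 genes and all lists were chosen with earlier results of these data known. No sequences are shown.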

Additional observations from a re-analysis of the deposited data

Results flagged for a closer look

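Both differences between responses that passed are listed here because the same contrast was tested at 2 times. CXCL2 in Old hearts had a Late minus Early difference of -2.94 between the IZ responses. CXCR4 in Young hearts had a difference of -1.75. The CXCL2 call was lost without Old Early IZ replicate 1, which held 46.4 CPM, or Old Late Sham replicate 3, which held 4.60 CPM. The CXCR4 call was lost without Young Late Sham replicate 2, which held 11.7 CPM. Groups of 3 were too small for the test of single outlying libraries.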

How the results depend on the processing

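Of 756 called values recomputed under alternatives, 667 kept the call and none changed direction. One of 4034 values, CCR1 in Young Late BZ, had no adjusted p in DESeq2. The numbers of calls that moved by more than 1.5 times were these. Late minus Early responses (2 calls) gave 5 with the DESeq2 test, 0 in limma-voom with the pig as a random replicate block, 4 with the legacy edgeR fit and 4 without both libraries of extreme depth. IZ against BZ (2) gave 5 with DESeq2, 1 with RNA integrity as a covariate, 1 with the animal of Old Late BZ replicate 3 taken from a conflicting label and 0 without both libraries. Sham differences (3) gave 1 with RNA integrity and 1 in limma-voom with the replicate block. Old minus Young responses (0) gave 1 without both libraries. Young Early BZ (2) gave 0 with the compared groups alone and 1 each with DESeq2 size factors, no filter, a batch term, mitochondrial genes left out and limma-voom with the replicate block. Young Late BZ (4) gave 1 in limma-voom with the replicate block. That alternative changes the test and the block together, and limma-voom with no pig term gave the same numbers (0, 1, 1 and 1).

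With single libraries left out, the calls ranged from 21 to 24 for IZ against sham, 11 to 15 for BZ against sham, 1 to 3 for sham differences, 0 to 5 for IZ against BZ, 1 to 6 for Late minus Early and 0 to 1 for Old minus Young. By condition they ranged from 5 to 5 in Young Early IZ, 7 to 7 in Old Early IZ, 4 to 6 in Young Late IZ, 5 to 6 in Old Late IZ, 1 to 2 in Young Early BZ, 3 to 5 in Old Early BZ, 0 to 4 in Young Late BZ and 4 to 4 in Old Late BZ. The cause of these changes was not tested. Counting error limits CXCL8, and the sham levels of CCR1 and CXCL14.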
